A study of Macaca mulatta with 27 samples.

Results

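The expression of 9 genes was examined in rhesus monkey pluripotent stem cells (PSCs): the transcription factors TFE3, TFEB and MITF, the folliculin gene FLCN and its partners FNIP1 and FNIP2, the Rag GTPase genes RRAGC and RRAGD, and GPNMB, a target gene of the factors. The genes were chosen by symbol, and all 9 were found among the 17967 gene symbols of the count tables. Bulk RNA sequencing gave 27 libraries, 6 of primed PSCs and 3 of each of 7 protocols meant to revert primed cells to naive pluripotency. The sample titles divide the primed libraries into the sets Primed and Primed 2. Their count columns carry the letters J and K, 3 each, which could not be matched to these sets. All libraries are described as coming from rhesus embryonic stem cells, and the study used LyonES-tGFP-(S3), a clone of the LyonES line that carries tauGFP under the CAG promoter and a lentiviral STAT3-ERT2 fusion. Both transgenes were therefore shared by the primed and the reprogrammed groups, and the results describe a single clone. Tamoxifen, which activates the STAT3-ERT2 fusion, was used in 2 protocols, TL2i (with LIF and inhibitors of MEK and GSK3β) and TL-CDK8/19i (with LIF and CNIO-47799, an inhibitor of CDK8 and CDK19, in place of the MEK and GSK3β inhibitors). The latter is called TL-CDK8i in the sample labels. t2iLGöY, LCDM (EPS), 4i/L/b, NHSM-v and E-NHSM were applied without tamoxifen. t2iLGöY combines titrated MEK and GSK3 inhibitors, LIF, the protein kinase C inhibitor Gö6983 and the ROCK inhibitor Y-27632. LCDM combines LIF, the GSK3 inhibitor CHIR99021, dimethindene maleate and minocycline. The agents of the other media, their doses and the time in culture were not given in the sources used here. Primed cells were passaged mechanically as clumps, whereas reprogrammed cells were dissociated to single cells, so that passaging and protocol cannot be told apart.

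MITF, TFEB, TFE3 and TFEC form the MiT/TFE family of basic helix-loop-helix leucine zipper factors, which bind E-box-like elements of lysosomal and autophagy genes. When nutrients are plentiful, the Rag GTPases hold these factors at the lysosome, where mTORC1 phosphorylates them and keeps them in the cytoplasm. Folliculin, in complex with FNIP1 or FNIP2, is the GTPase-activating protein for RagC and RagD. In mouse embryonic stem cells, nuclear TFE3 maintains Esrrb expression and the naive state, and folliculin is needed for its exclusion from the nucleus on exit from that state. The present data measure transcripts only, and give no information on where the proteins were or how they were phosphorylated.

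The libraries held 7111886 to 20760914 counts assigned to genes (median 12201171). Levels are given as CPM, each count divided by the TMM-adjusted depth of its library and so comparable between libraries. The label of embryonic stem cells was compared with 8 marker genes of pluripotent cells. Their summed level was 5894 to 6621 CPM in the primed libraries and 6709 to 6754 CPM in E-NHSM. It was 1741 to 2426 CPM in TL-CDK8/19i, 430.0 to 521 CPM in LCDM (EPS) and TL2i, and 122.7 to 195.9 CPM in NHSM-v, 4i/L/b and t2iLGöY. NANOG was at or under 3 counts in every library of NHSM-v, 4i/L/b, t2iLGöY and LCDM (EPS), against a mean of 134 CPM in primed cells. The mean of POU5F1 was 1182 CPM in primed cells, 502 CPM in TL-CDK8/19i and at most 6.44 CPM in the 5 protocols other than E-NHSM and TL-CDK8/19i. DNMT3B, at a mean of 3103 CPM, was the largest part of the primed sum. Not all markers fell alike. In LCDM (EPS) 7 of the 8 were called lower, while SOX2 had a mean of 329 CPM against 271 CPM in primed cells. LIN28A kept a mean of 271 CPM in TL2i, against 573 CPM in primed cells. In bulk libraries, fewer cells of a type and less RNA per cell cannot be told apart, which holds for each level given here. The labels do not state that the libraries of a group came from separate cultures, so that p-values measure the spread between libraries, which may be technical.

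The 6 primed libraries served as the reference for each protocol, to see which of the 9 genes differed after reprogramming. NHSM-v and t2iLGöY had the most, with 8 of 9 genes at an adjusted p under 0.05 in each (6 higher and 2 lower). In the same comparisons 58.6% and 54.3% of all genes tested passed the threshold. In 4i/L/b 5 of 9 genes passed (3 higher, 2 lower; background 55.6%). With RLE scaling the split was 6 higher and 1 lower in NHSM-v and 5 higher and 2 lower in 4i/L/b. In TL2i 5 of 8 genes passed (3 higher, 2 lower; background 50.7%), and in LCDM (EPS) 5 of 8 (4 higher, 1 lower; background 57.1%). In TL-CDK8/19i 2 of 8 genes passed, both lower (background 46.1%), and in E-NHSM 2 of 8 genes passed, both higher (background 26.2%). The median log2 fold change of the genes tested ran from -0.13 in TL-CDK8/19i to 0.94 in t2iLGöY, against medians of all genes between -0.02 and 0.07. GPNMB was too low to be tested in TL2i, E-NHSM, TL-CDK8/19i and LCDM (EPS). In NHSM-v, 4i/L/b and t2iLGöY it passed the count filter only through the protocol libraries, so a lower call was not possible. It is among the 6 genes higher in NHSM-v and in t2iLGöY, and adds no support to those counts. TFEB also passed the filter only with protocol libraries counted in, as too few primed libraries held counts. It is among the 6 genes higher in NHSM-v, and adds no support there either. The 7 comparisons share the same primed libraries and are not independent of each other.

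**Figure D1:**
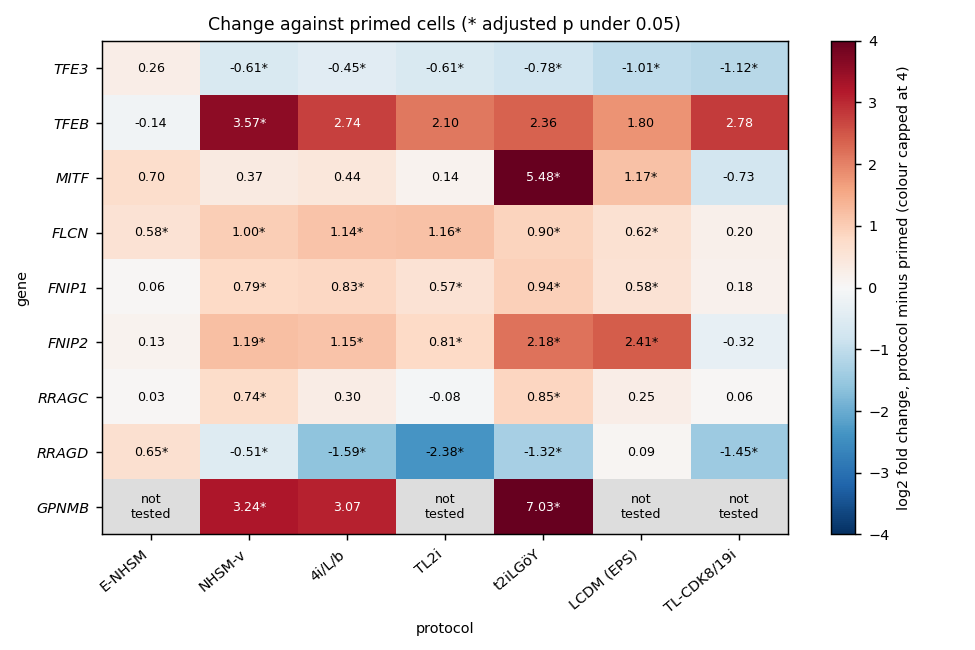
Log2 fold change against primed cells, by edgeR, for the 9 genes (vertical axis) in the 7 protocols (horizontal axis), with red for higher, blue for lower and asterisks for an adjusted p under 0.05. TFE3 was lower in 6 protocols while FLCN was higher in 6, RRAGD was lower in 5, and MITF and GPNMB had their highest values in t2iLGöY.

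TFE3, the family member most studied in naive PSCs, was lower than in primed cells in every protocol except E-NHSM. The primed libraries lay between 65.4 and 90.7 CPM, with a median of 78.1 CPM and a mean of 78.1 ± 9.93 CPM (SD, n = 6). The lowest values were those of TL-CDK8/19i, at 40.03, 37.6 and 34.1 CPM, and of LCDM (EPS), at 33.2, 42.6 and 40.3 CPM. The t2iLGöY libraries held 43.6, 43.2 and 46.6 CPM. These 3 protocols lay below all primed libraries, with no overlap.

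TL2i libraries had 51.9, 50.3 and 51.5 CPM of TFE3, and NHSM-v libraries 51.3, 51.2 and 53.3 CPM. The 4i/L/b libraries were at 59.4, 56.4 and 61.4 CPM. These values too were below the lowest primed library. By contrast the E-NHSM libraries, at 96.4, 88.7 and 97.4 CPM, overlapped the upper end of the primed range.

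The log2 fold change of TFE3 was -1.12 ± 0.14 (SE) in TL-CDK8/19i (adjusted p = 1.3e-05) and -1.01 ± 0.14 in LCDM (EPS) (adjusted p = 3e-05). It was -0.78 in t2iLGöY, -0.61 in both NHSM-v and TL2i, and -0.45 in 4i/L/b, with adjusted p between 0.00021 and 0.0071. In E-NHSM the estimate was 0.26 (95% CI 0.03 to 0.50, adjusted p = 0.12). When all 8 groups shared one fit, this difference had an adjusted p of 0.038. In the order of levels from 4i/L/b down to TL-CDK8/19i, no neighbouring protocols differed beyond their spread. Protocols further apart did: TFE3 was higher in 4i/L/b than in TL-CDK8/19i by 0.67 on the log2 scale (adjusted p = 4.9e-05), and higher in TL2i than in TL-CDK8/19i by 0.46 (adjusted p = 0.0026).

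TFEB, a close relative of TFE3, was near the limit of detection in primed cells. The primed libraries held 26 and 27 counts in K1 and K2 and 0 counts in the other 4, which gave a mean of 0.68 ± 1.06 CPM (SD, n = 6). Levels in NHSM-v were 6.65, 9.16 and 10.4 CPM, above every primed library. This was a log2 fold change of 3.57 ± 1.17 (adjusted p = 0.016). In each comparison TFEB passed the count filter only with protocol libraries counted in, as too few primed libraries held counts. A lower call was therefore hardly possible.

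Levels of TFEB were also above all primed libraries in 4i/L/b (4.80, 4.98 and 5.01 CPM), TL-CDK8/19i (5.39, 4.90 and 5.03 CPM), t2iLGöY (3.75, 3.94 and 2.96 CPM) and TL2i (2.30, 2.74 and 4.10 CPM). LCDM (EPS) libraries had 3.53, 1.41 and 2.44 CPM, and E-NHSM libraries 1.18, 0.28 and 0.43 CPM, and both overlapped the primed range. None of these 6 protocols passed the test, with adjusted p between 0.08 and 0.96. In the fit of all 8 groups TFEB passed in 4i/L/b, TL-CDK8/19i, TL2i and t2iLGöY too (adjusted p between 0.0044 and 0.031), and without primed K1 in 4i/L/b (adjusted p = 0.033) and TL-CDK8/19i (adjusted p = 0.035). With the J libraries alone, all at 0 counts, only a higher call of TFEB was possible. That call was made in every protocol except E-NHSM, with adjusted p of 0.0033 or less, and adds no support. The call in NHSM-v was lost without NHSM-v library 2 (adjusted p = 0.05), without library 3 (adjusted p = 0.062) and with DESeq2 (adjusted p = 0.12). TFEC, the remaining family member, had at most 22 counts in any library and was not tested.

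As TFE3 fell in most protocols, its balance with TFEB was compared within libraries, as the difference of their log2 CPM with a prior count of 2. The mean difference, TFEB minus TFE3, was -7.73 ± 2.02 (SD, n = 6) in primed cells and -2.58 ± 0.30 in NHSM-v, -2.83 ± 0.09 in TL-CDK8/19i, -3.54 ± 0.07 in 4i/L/b and -3.60 ± 0.27 in t2iLGöY (n = 3 each). These 4 protocols did not overlap the primed libraries and each gave an exact two-sided permutation p of 0.0119, the smallest that 3 against 6 libraries allow, or 0.0227 after adjustment over 21 ratio tests. TL2i (-4.05) and LCDM (EPS) (-3.97) did not overlap the primed libraries either, though LCDM library 2 (-4.773) lay close to primed K1 (-4.786). Both protocols missed the threshold (adjusted p = 0.0893 and 0.0769 by the same permutation test). Since 4 primed libraries had no TFEB counts, the size of these differences depends on the prior count, and with a prior count of 0.5 only 2 of the 7 protocols passed.

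**Figure D2:**
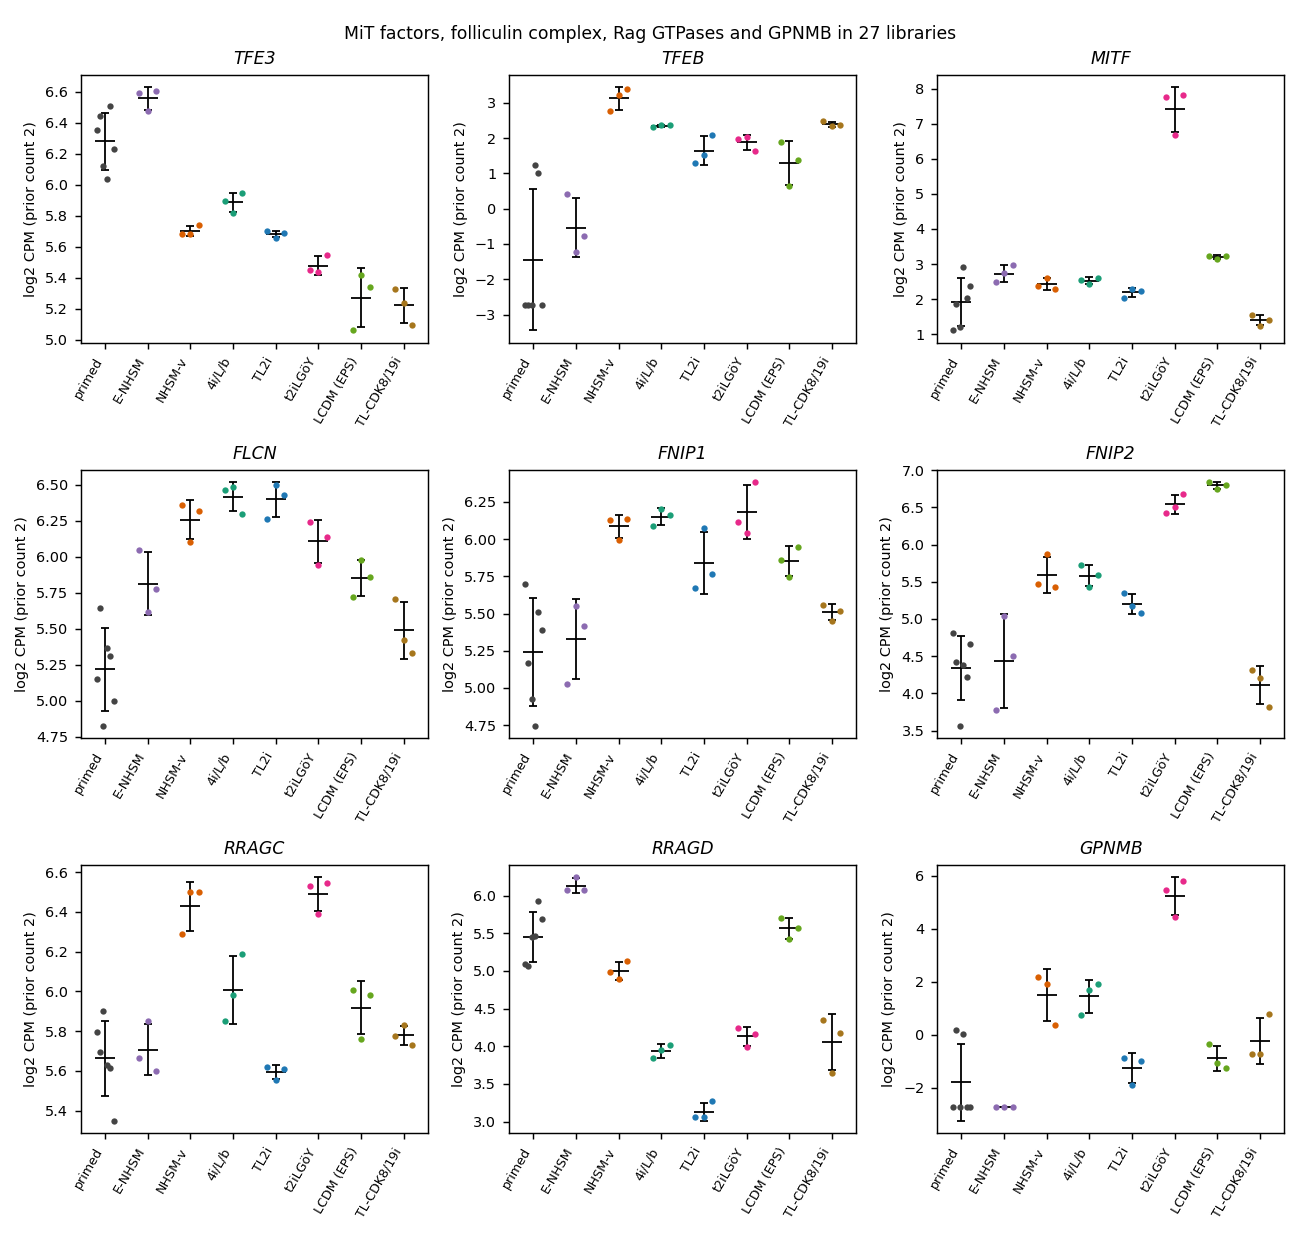
Log2 CPM (vertical axis, prior count 2) of the 9 genes in each of the 27 libraries (points), by group (horizontal axis), with the mean and SD of each group as black bars. TFE3 falls from the primed and E-NHSM libraries to TL-CDK8/19i, MITF and GPNMB stand out in t2iLGöY, and FNIP2 is highest in LCDM (EPS) and t2iLGöY.

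MITF, the family member that directs pigment cell development, was low in primed cells and abundant in t2iLGöY. Primed libraries lay between 2.01 and 7.36 CPM (median 3.70, mean 3.99 ± 2.01, SD, n = 6). The 3 t2iLGöY libraries held 216, 102 and 224 CPM. All lay above the highest primed library, and library 2 was the lowest of the 3. The log2 fold change was 5.48 ± 0.32 (adjusted p = 2.1e-09). MITF was also higher in t2iLGöY than in each of the other 6 protocols, with the smallest difference, 4.32 on the log2 scale, against LCDM (EPS) (adjusted p = 4.5e-12).

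LCDM (EPS) libraries had 9.28, 8.72 and 9.15 CPM of MITF, just above the primed range. Their log2 fold change was 1.17 ± 0.45 (adjusted p = 0.037). The call was lost when any of the LCDM (EPS) libraries or primed J1, J2 or K2 was left out (adjusted p between 0.055 and 0.095) and against the K libraries alone (adjusted p = 0.083). In E-NHSM, NHSM-v, 4i/L/b and TL2i the group means were 4.43 to 6.56 CPM and no difference from primed cells passed, although that of E-NHSM did in the fit of all 8 groups (adjusted p = 0.046). TL-CDK8/19i had the lowest level, at 2.75, 2.23 and 2.51 CPM, inside the primed range (log2 fold change -0.73, 95% CI -1.90 to 0.44).

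Genes of pigment cells were high in the same t2iLGöY libraries as MITF. All 6 pigment cell markers were higher than in primed cells, where 27.1% of all genes tested were higher. Those other than PMEL passed the count filter only through the t2iLGöY libraries. A lower call was not possible for them, so that share is no fair yardstick. The summed level of the 6 markers was 622.5 to 1450 CPM in t2iLGöY, against 119.4 to 165.2 CPM in primed libraries. TYRP1, a melanosomal enzyme, had a mean of 180 CPM against 0.07 CPM, with 5 of the 6 primed libraries at 0 counts. DCT, another enzyme of melanin synthesis, had 42.1 CPM against 0.30 CPM, and MLANA, a melanosome protein, 42.7 CPM against 0.76 CPM. PMEL, which forms the fibrils of melanosomes, was present in primed cells at 144 CPM and rose to 804 CPM, a log2 fold change of 2.51 ± 0.17 (adjusted p = 1.3e-08). TYR and SLC45A2 reached 6.43 and 15.6 CPM. For MITF, GPNMB and all 6 markers, library 2 was the lowest of the 3 t2iLGöY libraries. With at least 10 counts required in every library, PMEL was the only marker left to test.

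Neural crest genes were also high in t2iLGöY, where 5 of 6 were higher and FOXD3 was lower (27.1% and 27.2% of all genes tested). SOX10, which activates MITF transcription in melanoblasts, was at 192, 102 and 241 CPM, against at most 2.71 CPM in primed libraries. PAX3, another activator of MITF, was at 214, 155 and 197 CPM against at most 4.43 CPM. SOX10 and PAX3 were not raised in t2iLGöY alone. SOX10 was also higher in 4i/L/b (log2 fold change 4.56), TL2i (6.51) and TL-CDK8/19i (3.74), and PAX3 was higher in each protocol except E-NHSM, whereas MITF was called in t2iLGöY and LCDM (EPS) only. The summed level of the 6 neural crest genes was 481.6 to 760.2 CPM in t2iLGöY, 358.2 to 495.1 CPM in TL2i, 392.2 to 417.2 CPM in LCDM (EPS) and 31.8 to 62.0 CPM in primed cells. It was also above the primed libraries in NHSM-v (278.4 to 313 CPM), 4i/L/b (223.7 to 239.6 CPM) and TL-CDK8/19i (87.09 to 109.3 CPM), and below them in E-NHSM (10.49 to 15.18 CPM). Summed pigment cell markers were 51.5 to 60.8 CPM in LCDM (EPS) and 211.4 to 233.3 CPM in TL2i. The part of pigment or neural crest cells in the MITF result was not tested.

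**Figure D3:**
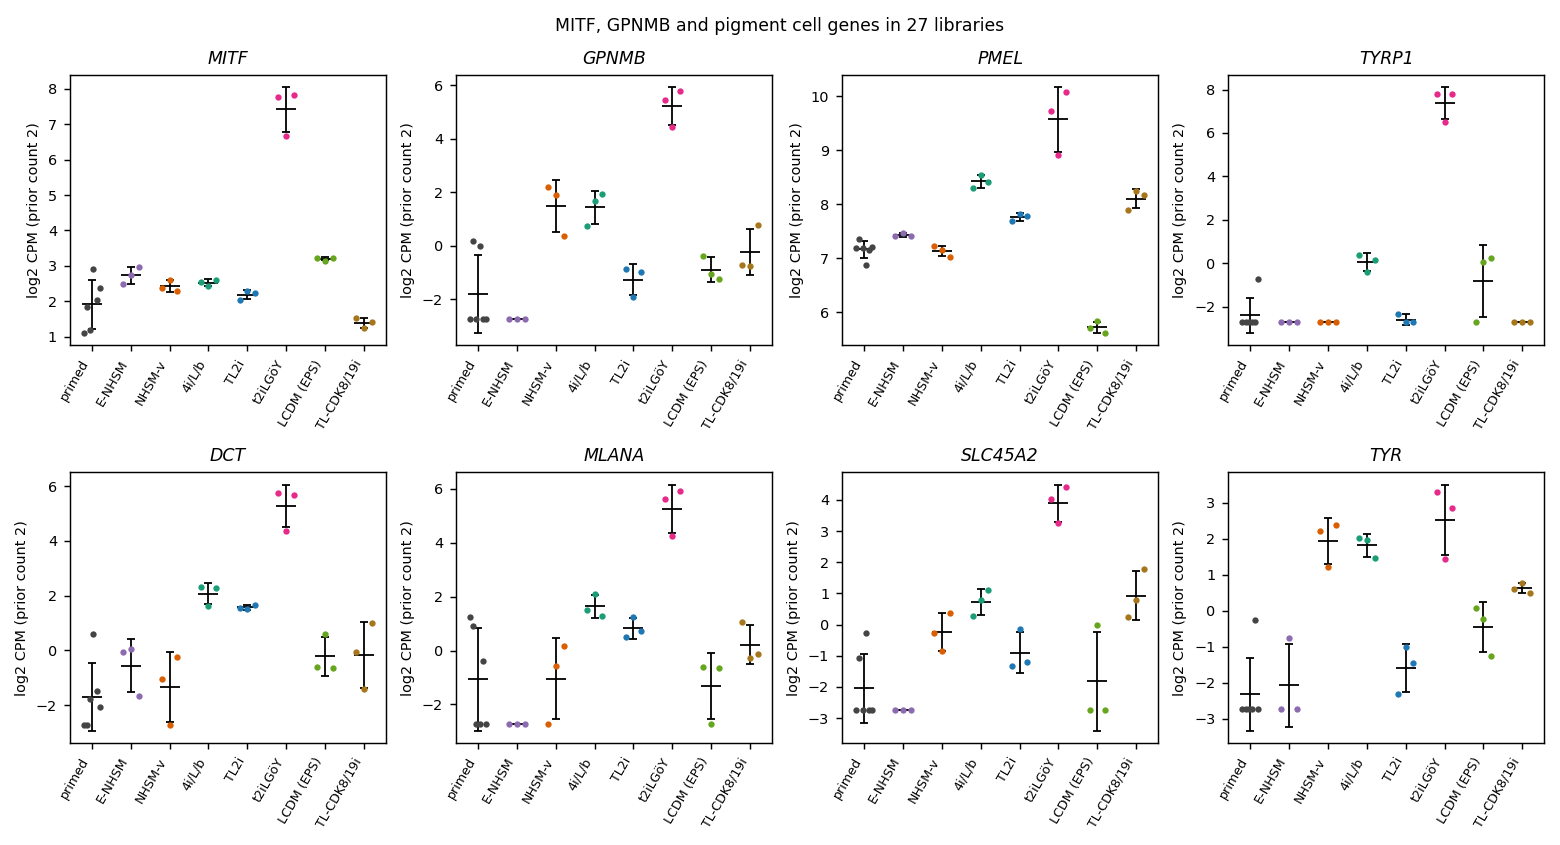
Log2 CPM (vertical axis, prior count 2) of MITF, GPNMB and the 6 pigment cell genes in each library (points), by group (horizontal axis), with group mean and SD as black bars. All 8 genes have their highest group mean in t2iLGöY, where library 2 is the lowest of the 3.

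FLCN and its partners, which act on RagC and RagD, were higher in 5 or 6 of the 7 protocols and lower in none. FLCN was at 28.3 to 49.95 CPM in primed libraries (median 37.5, mean 37.7 ± 7.66, SD, n = 6). The 4i/L/b libraries had 88.3, 89.3 and 78.6 CPM, and the TL2i libraries 76.7, 90.4 and 86.1 CPM. NHSM-v libraries were at 81.9, 68.5 and 79.5 CPM. All 3 protocols were above every primed library.

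Lower but still raised levels of FLCN were seen in t2iLGöY (75.4, 61.5 and 70.3 CPM) and LCDM (EPS) (52.7, 62.7 and 57.8 CPM). The log2 fold changes were 1.16 ± 0.16 in TL2i (adjusted p = 3.4e-05), 1.14 in 4i/L/b, 1.00 in NHSM-v, 0.90 in t2iLGöY and 0.62 in LCDM (EPS) (adjusted p = 0.006). E-NHSM libraries had 66.04, 48.9 and 54.6 CPM, of which library 2 lay inside the primed range. E-NHSM had a log2 fold change of 0.58 (adjusted p = 0.019), and the call was lost without E-NHSM library 1 (adjusted p = 0.14), without library 3 (adjusted p = 0.053) and against the J libraries alone (adjusted p = 0.053). TL-CDK8/19i libraries, at 52.2, 42.8 and 40.2 CPM, overlapped primed cells (log2 fold change 0.20, 95% CI -0.14 to 0.55). FLCN was higher in TL2i than in TL-CDK8/19i by 0.91 on the log2 scale (adjusted p = 2e-05).

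FNIP1 was at 26.7 to 51.8 CPM in primed libraries (mean 38.6 ± 9.49, SD, n = 6). It was at 69.2, 65.8 and 83.4 CPM in t2iLGöY, 68.0, 73.3 and 71.6 CPM in 4i/L/b, and 69.7, 63.7 and 70.1 CPM in NHSM-v, all above the primed range. The log2 fold changes were 0.94, 0.83 and 0.79, each with an adjusted p of 0.002 or less. In LCDM (EPS) the libraries had 58.0, 53.5 and 61.5 CPM (log2 fold change 0.58, adjusted p = 0.017, and 0.064 without LCDM library 3). In TL2i they had 50.9, 67.3 and 54.3 CPM (0.57, adjusted p = 0.024). The TL2i call was lost without library 2 (adjusted p = 0.14), without library 3 (adjusted p = 0.051) and against the J libraries alone (adjusted p = 0.053). E-NHSM and TL-CDK8/19i, with means of 40.5 and 45.4 CPM, did not pass.

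FNIP2 had the widest range within the folliculin complex. Primed libraries lay between 11.7 and 27.8 CPM (median 20.98, mean 20.9 ± 5.59, SD, n = 6). LCDM (EPS) libraries had 114, 107 and 111 CPM, and t2iLGöY libraries 85.7, 90.8 and 103 CPM. The log2 fold change was 2.41 ± 0.19 in LCDM (EPS) (adjusted p = 1.1e-07) and 2.18 ± 0.20 in t2iLGöY (adjusted p = 3.5e-07). These groups stood clear of the other 6, and did not differ from each other beyond their spread (0.25, adjusted p = 0.44).

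The next group held NHSM-v (44.1, 58.5 and 43.1 CPM of FNIP2), 4i/L/b (52.7, 43.2 and 47.8 CPM) and TL2i (40.6, 35.8 and 33.7 CPM). All were above the primed range, with log2 fold changes of 1.19, 1.15 and 0.81. t2iLGöY was higher than NHSM-v by 0.94 (adjusted p = 0.0012), and TL2i was higher than E-NHSM by 0.68 (adjusted p = 0.012). E-NHSM libraries were spread over 13.6, 32.7 and 22.5 CPM, and TL-CDK8/19i libraries had 19.7, 18.4 and 14.0 CPM. Neither differed from primed cells by the test.

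Within libraries, FNIP2 was below FNIP1 in primed cells by 0.90 ± 0.37 on the log2 CPM scale (SD, n = 6), a quantity used here to follow the balance and not to compare the abundance of the proteins. The sign turned in t2iLGöY (0.36 ± 0.09, n = 3) and LCDM (EPS) (0.94 ± 0.08, n = 3), each with an exact permutation p of 0.0119 and an adjusted p of 0.0227. The differences from primed cells were 1.25 and 1.84. In TL2i, NHSM-v and 4i/L/b, in which both genes were higher, the balance stayed within 0.40 of primed cells and did not pass. In TL-CDK8/19i it was lower by 0.50 (permutation p = 0.107).

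RRAGC and RRAGD encode paralogous Rag GTPases that pair with RagA or RagB, and their transcripts did not move together. RRAGC was at 40.6 to 59.6 CPM in primed libraries (mean 50.9 ± 6.48, SD, n = 6). NHSM-v libraries had 77.9, 90.2 and 90.2 CPM, and t2iLGöY libraries 92.4, 83.8 and 93.2 CPM, with no overlap with primed cells. The log2 fold changes were 0.74 ± 0.13 (adjusted p = 0.00024) and 0.85 ± 0.13 (adjusted p = 7.4e-05).

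In the other 5 protocols the RRAGC means were 48.2 to 64.4 CPM, and no difference passed, although that of LCDM (EPS) did in the fit of all 8 groups (adjusted p = 0.04) and against the K libraries alone (adjusted p = 0.021). The closest was 4i/L/b, at 57.6, 63.0 and 72.8 CPM (log2 fold change 0.30, adjusted p = 0.078). It passed under DESeq2, upper-quartile and RLE scaling, without a count filter, with the stricter filter, in the fit of all 8 groups, against the K libraries alone and without primed J3 or 4i/L/b library 1 (adjusted p between 0.0068 and 0.048). RRAGC was higher in NHSM-v than in 4i/L/b by 0.42 (adjusted p = 0.01).

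RRAGD, itself a transcriptional target of the MiT/TFE factors, was lower in 5 protocols and higher in E-NHSM. Primed libraries lay between 33.3 and 60.96 CPM (median 43.8, mean 44.6 ± 10.6, SD, n = 6). TL2i libraries had the lowest values, at 8.23, 8.16 and 9.48 CPM. Those of 4i/L/b were at 14.2, 15.3 and 16.1 CPM, and those of t2iLGöY at 18.8, 15.8 and 17.8 CPM. None of the 3 protocols overlapped the primed libraries, and the log2 fold changes were -2.38 ± 0.22 (adjusted p = 9.7e-07), -1.60 and -1.32.

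TL-CDK8/19i libraries had 20.3, 12.4 and 18.0 CPM of RRAGD, also below the primed range (log2 fold change -1.45, adjusted p = 0.00012). NHSM-v libraries, at 31.5, 29.5 and 34.9 CPM, overlapped it. Its log2 fold change was -0.51 (adjusted p = 0.04), and the call was lost when any NHSM-v library or primed K1, K2 or K3 was left out (adjusted p between 0.068 and 0.13), under DESeq2 (0.061), RLE scaling (0.062) and no filter (0.064), and against the J libraries alone (adjusted p = 0.41). LCDM (EPS) libraries, at 52.0, 42.9 and 47.4 CPM, lay within the primed range (0.09, 95% CI -0.27 to 0.45). E-NHSM libraries had 67.1, 75.7 and 67.3 CPM, above every primed library. This gave a log2 fold change of 0.65 ± 0.17 (adjusted p = 0.0086, and 0.057 without E-NHSM library 2).

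The balance of RRAGD and RRAGC within libraries was -0.21 ± 0.46 in primed cells (log2 CPM of RRAGD minus RRAGC, SD, n = 6). It was -2.46 ± 0.11 in TL2i, -2.35 ± 0.06 in t2iLGöY, -2.07 ± 0.09 in 4i/L/b, -1.72 ± 0.41 in TL-CDK8/19i and -1.43 ± 0.16 in NHSM-v (n = 3 each). All 5 protocols lay outside the primed range, with an exact permutation p of 0.0119 and an adjusted p of 0.0227 each. In E-NHSM the balance was 0.43 ± 0.04, above all primed libraries, with a permutation p of 0.0476 and an adjusted p of 0.0769. LCDM (EPS), at -0.35, overlapped primed cells (permutation p = 0.667). The permutation tests treat the 6 primed libraries as exchangeable, although this balance was -0.71 to -0.45 in the J libraries and -0.16 to 0.34 in the K libraries. With 5 primed libraries the smallest p rises to 0.0179, and none of the 11 ratio differences called passed when J1, J2, J3 or K3 was left out (adjusted p between 0.0536 and 0.0577), whereas all 11 passed without K1 or without K2 (adjusted p = 0.0288). Leaving out any library of the protocol itself, which leaves 2 against 6, ended each of the 11 calls as well (adjusted p = 0.062 or 0.068 by the same permutation test).

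**Figure D4:**
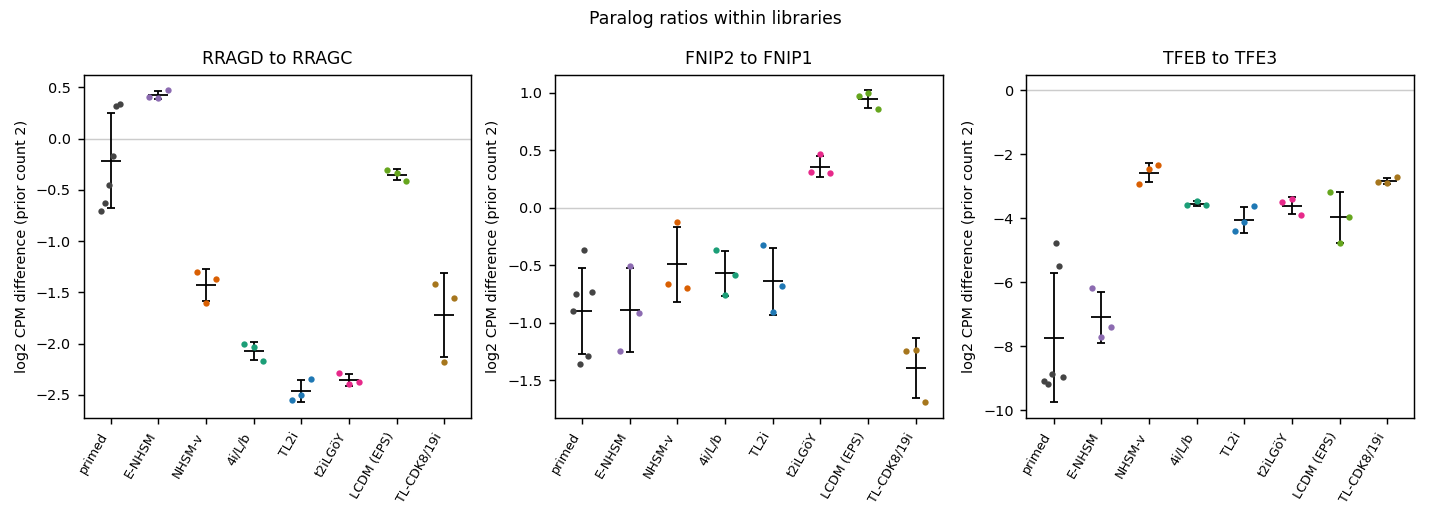
Difference in log2 CPM (vertical axis, prior count 2) within each library (points) for RRAGD and RRAGC, FNIP2 and FNIP1, and TFEB and TFE3, by group (horizontal axis), with group mean and SD as black bars. RRAGD to RRAGC falls in 5 protocols, FNIP2 to FNIP1 rises above 0 in t2iLGöY and LCDM (EPS), and the primed libraries of TFEB to TFE3 separate into those with and without TFEB counts.

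GPNMB, a transmembrane glycoprotein of melanosomes and lysosomes, was nearly absent from primed cells and highest in t2iLGöY. Primed libraries J2 and K1 had 9 and 10 counts and the other 4 had 0 counts, a mean of 0.30 ± 0.47 CPM (SD, n = 6). The t2iLGöY libraries held 43.8, 21.6 and 55.9 CPM. The fitted log2 fold change was 7.03 ± 0.73 (adjusted p = 1.2e-06), a size that rests on few primed counts. GPNMB entered this test, and those of NHSM-v and 4i/L/b below, only through the protocol libraries. A lower call was therefore not possible. As given above, the 6 pigment cell markers were raised in the same libraries, and their part in the GPNMB result was not tested. GPNMB is also a macrophage gene, and the 6 macrophage markers summed to 3.21 to 4.34 CPM in t2iLGöY and 1.43 to 4.69 CPM in primed cells, with 4 of the 6 at or under 3 counts in every t2iLGöY library. The part of macrophages in the GPNMB result was not tested.

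Lower levels of GPNMB were found in NHSM-v (4.40, 3.60 and 1.14 CPM) and 4i/L/b (1.54, 3.04 and 3.66 CPM). Both groups lay above the primed libraries. The log2 fold change was 3.24 in NHSM-v (adjusted p = 0.048) and 3.07 in 4i/L/b (adjusted p = 0.055). The call in NHSM-v was lost without any of the NHSM-v libraries or primed J1, K2 or K3 (adjusted p between 0.063 and 0.17), without a count filter (adjusted p = 0.06) and against the J libraries alone (adjusted p = 0.068). That in 4i/L/b was gained without primed J2 (adjusted p = 0.027) or K1 (adjusted p = 0.029), against the K libraries alone (adjusted p = 0.028), under RLE scaling (adjusted p = 0.049) and in the fit of all 8 groups (adjusted p = 0.00082). Summed pigment cell markers were 330.5 to 386.9 CPM in 4i/L/b, above the primed libraries, with 3 of 5 tested markers higher, and 6 of 6 in the fit of all 8 groups. In NHSM-v they were 138.5 to 154.9 CPM, inside the primed range, with TYR higher (3.90 against 0.12 CPM) of 2 tested. Apart from PMEL, these markers entered the tests only through protocol libraries, so a lower call was not possible for them. Their part in these GPNMB levels was not tested. GPNMB was higher in t2iLGöY than in NHSM-v by 3.74 (adjusted p = 0.00049). TL2i, LCDM (EPS) and TL-CDK8/19i libraries had 2 to 16 counts each, and the 3 E-NHSM libraries had 0 counts.

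The protocols were then compared with each other in a single fit of all 27 libraries. With each of the 9 genes compared in each of 21 pairs of protocols, 109 comparisons differed (57.7%), against 46.3% of the comparisons of all genes tested, and without GPNMB 94 differed (56%). RRAGD differed in 18 of 21 pairs, FNIP2 in 16, GPNMB in 15 (6 of them against E-NHSM, which had 0 counts), TFE3 and RRAGC in 13 each, MITF in 12, FLCN in 10, FNIP1 in 8 and TFEB in 4. In the order of RRAGD levels, E-NHSM was higher than LCDM (EPS) by 0.56 (adjusted p = 0.0093), NHSM-v was higher than t2iLGöY by 0.87 (adjusted p = 0.00049), and 4i/L/b was higher than TL2i by 0.82 (adjusted p = 0.0032). t2iLGöY, TL-CDK8/19i and 4i/L/b were not told apart from each other (adjusted p = 0.85 for t2iLGöY and TL-CDK8/19i, 0.57 for TL-CDK8/19i and 4i/L/b, and 0.47 for 4i/L/b and t2iLGöY).

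The 2 protocols with tamoxifen-activated STAT3-ERT2 differed in 4 of the 9 genes, while 45% of all genes tested differed between them. TL2i had more TFE3 (51.2 against 37.2 CPM), FLCN (84.4 against 45.1 CPM) and FNIP2 (36.7 against 17.4 CPM) than TL-CDK8/19i, and less RRAGD (8.62 against 16.9 CPM, a log2 difference of -0.97, adjusted p = 0.0002). FNIP2 differed by 1.08 on the log2 scale (adjusted p = 0.0004). RRAGC (48.2 and 54.8 CPM) and MITF (4.43 and 2.50 CPM) did not pass (adjusted p = 0.24 and 0.057).

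The genes whose group means were most like those of each gene were sought among 9957 genes, by Pearson's r of log2 CPM over the 8 group means, which come from shared libraries. For TFE3 these were CD320 (r = 0.96), C4H6orf62 and TSTA3. CD320 was at 23.5 CPM in primed cells, 24.5 CPM in E-NHSM and 9.65 CPM in TL-CDK8/19i. For FNIP2 they were DCTN4 and PNMA1 (r = 0.998 and 0.993), and DCTN4 was at 120 CPM in primed cells, 246 CPM in t2iLGöY and 262 CPM in LCDM (EPS). For RRAGD they were FSD1 and RYR2 (r = 0.98 and 0.96), and for GPNMB RAB32, a GTPase of melanosome transport, and BACE2 (r = 0.97 and 0.95). RAB32 was at 8.06 CPM in primed cells and 23.8 CPM in t2iLGöY. The others were FGFR2 for MITF, ATF6 and PRSS35 for TFEB, TKFC and DIP2A for FLCN, B4GAT1 and ABHD16A for FNIP1, and DYNC1I2 and COL5A3 for RRAGC, with r between 0.95 and 0.99. With 8 points and 9957 candidates such values are a description.

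Lysosomal target genes of the MiT/TFE factors were not changed in a single direction. Of 25 such genes, 13 were higher and 2 lower in NHSM-v (28% and 30.6% of all genes tested), and 11 were higher and 5 lower in TL2i (25.6% and 25.2%). In LCDM (EPS) 4 were higher and 10 lower (28.2% and 28.9%). The counts were 7 and 1 in both 4i/L/b (26.6% and 29%) and TL-CDK8/19i (22.3% and 23.8%), 5 and 4 in t2iLGöY (27.1% and 27.2%), and 3 and 4 in E-NHSM (11.1% and 15.1%). In the fit of all 8 groups the counts were 8 and 7 in t2iLGöY and 3 and 10 in E-NHSM, and against the K libraries alone 10 and 3 in 4i/L/b. The median log2 fold change of the list was 0.52 in NHSM-v and 0.24 in TL2i, and -0.21 in LCDM (EPS), while the medians of all genes were -0.02, 0.07 and 0.03.

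TPP1, a lysosomal peptidase, was higher in all 7 protocols, from 0.32 in E-NHSM (adjusted p = 0.024) to 1.46 in NHSM-v (adjusted p = 2.1e-09). Its mean was 125 CPM in primed cells and 348 CPM in NHSM-v. CTSB, the protease cathepsin B, was higher in all protocols except E-NHSM, with means of 68.4 CPM in primed cells, 316 CPM in NHSM-v and 262 CPM in 4i/L/b. CTSF, another cathepsin, was lower in 5 protocols, down to 4.39 CPM in t2iLGöY and 5.40 CPM in LCDM (EPS) from 26.9 CPM, and higher in TL-CDK8/19i at 38.9 CPM. SGSH, a heparan sulphate sulphatase, fell from 41.9 CPM to 12.6 CPM in LCDM (EPS) and 13.4 CPM in NHSM-v. MCOLN1, the lysosomal calcium channel, rose in NHSM-v by 1.41 on the log2 scale and was lower in TL-CDK8/19i (-1.26), and was named after its values were seen.

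Autophagy targets gave 6 of 10 genes higher and none lower in NHSM-v, 5 and 0 in TL-CDK8/19i, 5 and 2 in t2iLGöY, 4 and 0 in 4i/L/b, 3 and 1 in LCDM (EPS), 2 and 2 in TL2i, and 1 and 0 in E-NHSM. These are to be read against the shares of all genes given for the lysosomal genes, such as 28% higher and 30.6% lower in NHSM-v. The counts became 4 and 3 in TL2i and 2 and 0 in E-NHSM in the fit of all 8 groups, and against the J libraries alone 3 and 0 in t2iLGöY, 2 and 0 in 4i/L/b and 0 and 2 in LCDM (EPS). SQSTM1, which encodes the autophagy receptor p62, was at 33.5 CPM in primed cells and was higher in 5 protocols, up to 85.6 CPM in 4i/L/b (log2 fold change 1.31, adjusted p = 1.3e-06). WIPI1, which acts at forming autophagosomes, was higher in TL-CDK8/19i (35.6 against 6.73 CPM, adjusted p = 2.7e-05) and E-NHSM (14.8 CPM, adjusted p = 0.027). GABARAPL1, of the ATG8 family, was higher in TL-CDK8/19i (232 against 87.0 CPM) and lower in TL2i, t2iLGöY and LCDM (EPS) (57.9 to 62.7 CPM). ATG9B had 1.57 CPM in primed cells and 0 counts in the 3 t2iLGöY libraries.

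**Figure D5:**
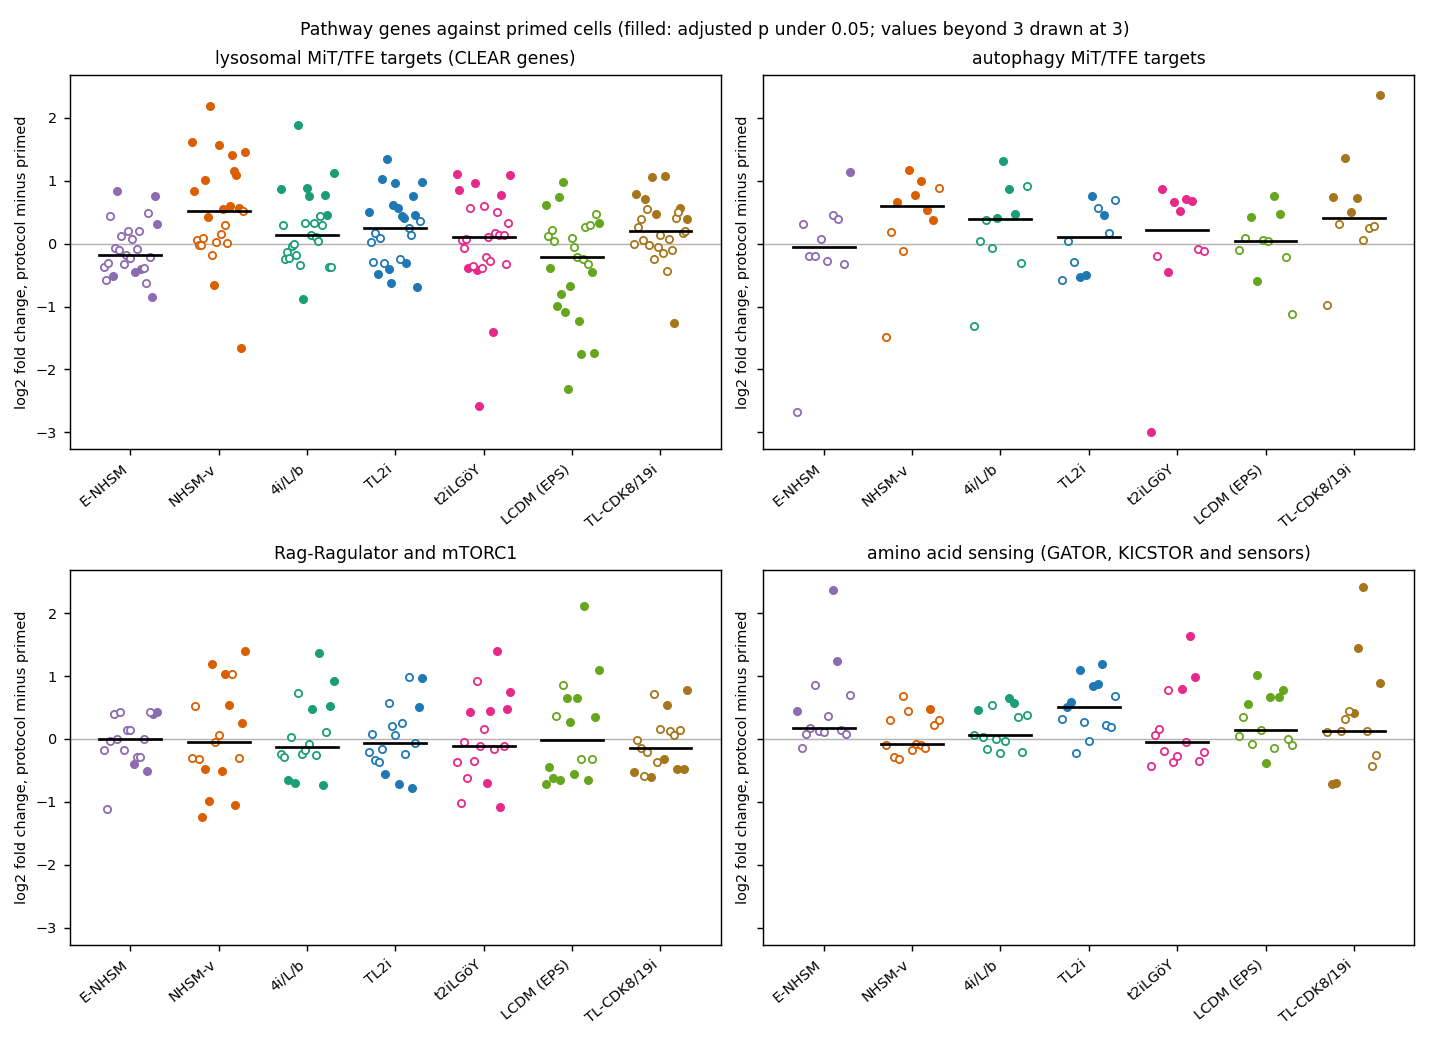
Log2 fold change against primed cells (vertical axis) of each tested gene (points) of the 4 pathway lists, by protocol (horizontal axis), with filled points for an adjusted p under 0.05 and black lines for the median. The lysosomal genes have a median of 0.52 in NHSM-v and -0.21 in LCDM (EPS), and ATG9B in t2iLGöY lies beyond the lower limit of the axis.

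Among 17 genes of the Rag, Ragulator and mTORC1 complexes and their regulators, 12 of 16 tested were called in LCDM (EPS), 6 in each direction, and 10 of 17 in NHSM-v, 5 in each direction. The counts higher and lower were 5 and 2 in t2iLGöY, 4 and 3 in 4i/L/b, 2 and 3 in TL2i, 2 and 5 in TL-CDK8/19i, and 2 and 2 in E-NHSM. Of all genes tested, 57.1% were called in LCDM (EPS), 58.6% in NHSM-v, 54.3% in t2iLGöY, 55.6% in 4i/L/b, 50.7% in TL2i, 46.1% in TL-CDK8/19i and 26.2% in E-NHSM. In TL2i the counts were 4 and 5 against the J libraries alone and 4 and 4 against the K libraries alone. TSC2, a subunit of the complex that restrains mTORC1 through RHEB, was higher in all 7 protocols, with a mean of 86.9 CPM in primed cells and 117 to 234 CPM in the protocols (adjusted p between 2e-08 and 0.01). SLC38A9, the lysosomal arginine sensor that binds the Rag-Ragulator complex, was lower in all 7, with 62.5 CPM in primed cells and 29.1 to 46.5 CPM in the protocols (adjusted p between 3e-05 and 0.02). RRAGB, a partner of RagC and RagD, was higher in LCDM (EPS), t2iLGöY and 4i/L/b, with 26.3, 15.7 and 16.0 CPM against 6.07 CPM. LAMTOR2, a Ragulator subunit, was lower in NHSM-v, 4i/L/b and LCDM (EPS), at 8.97, 13.6 and 13.5 CPM against 20.8 CPM.

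Of 15 amino acid sensing symbols, 13 were found and tested. In LCDM (EPS) 1 was called lower and in TL-CDK8/19i 2, and none in the other protocols. The number called higher was 6 in TL2i, 5 in LCDM (EPS), 4 in TL-CDK8/19i, 3 in each of E-NHSM, 4i/L/b and t2iLGöY, and 1 in NHSM-v, where 11.1% (E-NHSM) to 28.2% (LCDM (EPS)) of all genes tested were higher and 15.1% (E-NHSM) to 30.6% (NHSM-v) lower. In the fit of all 8 groups 4 were higher and 2 lower in t2iLGöY, 4 and 1 in NHSM-v, and 5 and 0 in E-NHSM and in 4i/L/b. Against the K libraries alone the counts were 10 and 1 in TL2i, 4 and 2 in NHSM-v, and 6 and 0 in E-NHSM and in 4i/L/b. Those called lower were SEC13 in LCDM (EPS) and, named after their values were seen, KPTN and ITFG2 of the KICSTOR complex in TL-CDK8/19i. SESN1, a sestrin that binds GATOR2, was higher in TL-CDK8/19i (52.9 against 18.8 CPM, adjusted p = 7.5e-06), TL2i, t2iLGöY and LCDM (EPS). NPRL2, a GATOR1 subunit, was higher in TL2i and LCDM (EPS), at 18.5 and 17.6 CPM against 8.72 CPM. SEC13, which GATOR2 shares with the COPII coat and the nuclear pore, was higher in TL-CDK8/19i (124 against 90.5 CPM) and lower in LCDM (EPS) (69.4 CPM). MIOS, a GATOR2 subunit, did not pass in any protocol, with means of 51.6 to 72.0 CPM.

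Markers of other cell types moved with the protocols. The 7 fibroblast genes summed to 1136 to 2407 CPM in primed cells, 11590 to 15060 CPM in 4i/L/b, 8665 to 11210 CPM in TL-CDK8/19i, 7841 to 8371 CPM in NHSM-v, 3417 to 4021 CPM in t2iLGöY, 2949 to 5731 CPM in TL2i, 768.8 to 998.6 CPM in LCDM (EPS) and 405.1 to 450.5 CPM in E-NHSM. These sums do not stand for each gene. In t2iLGöY, of 5 tested, 3 were higher and 2 lower (27.1% and 27.2% of all genes tested), and 2 of the 7 were at the floor. The 6 genes of neural progenitors and neurons (PAX6, SOX1, NES, MAP2, DCX and TUBB3) summed to 2336 to 2651 CPM in primed cells. Sums were highest in LCDM (EPS), at 6156 to 6392 CPM, and t2iLGöY, at 3729 to 4050 CPM, the protocols in which FNIP2 was highest. They were also above the primed libraries in 4i/L/b (3063 to 3237 CPM), NHSM-v (2987 to 3031 CPM) and TL2i (2802 to 2954 CPM). The median log2 fold change of these genes was 5.79 in t2iLGöY, 5.18 in LCDM (EPS) and 3.91 in NHSM-v. It was 3.03 in 4i/L/b, 2.57 in TL2i, -0.09 in TL-CDK8/19i and -0.35 in E-NHSM. The part of these cell types in the changes of the 9 genes was not tested.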

How the data were processed

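RNA-seq libraries were prepared from 200 ng of RNA with a directional mRNA kit and sequenced as single reads of 75 bases. Per the labels, the authors used bcl2fastq, cutadapt, HISAT2 and HTSeq, and deposited 8 tables of raw counts per gene symbol, without normalization. Tool versions, genome build, annotation and strand setting were not given in the sources used here, so reads shared by paralogs or overlapping genes could not be traced. No genome coordinates or sequences are shown.

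The name of each of the 27 columns gave its group. The primed columns carry the letters J and K (3 each), and were mapped to the primed group only, since the sample titles give the sets Primed and Primed 2 whereas the protocol labels of the second set give Primed 2 for 1 sample and Primed 3 for 2. Counts of libraries of a group differed by more than sampling noise (chi-square per gene 3.98 to 29.8), so none was merged. Depth was 7111886 to 20760914 counts.

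The deposited counts were analysed with edgeR 4.0.16 in R 4.3.3 (TMM, filterByExpr, glmQLFit and glmQLFTest), each protocol with the primed libraries only and with Benjamini-Hochberg adjustment over all genes tested (threshold 0.05). SE of log2 fold changes were derived from the F statistic, and 95% intervals as 1.96 SE on either side. Pairs of protocols were compared in a fit of all 8 groups, with adjustment within each pair. Ratios of paralogs used two-sided exact permutation tests (84 regroupings). On simulated counts of 3 against 6 libraries, edgeR recovered 81.4% of 2-unit and 64.9% of 1-unit log2 changes, with 4.11% false calls, and DESeq2 1.42.0 recovered 85.6% and 72.3% with 17.9%. Alternatives were DESeq2, other scalings and count filters, a minimum log2 fold change, a shared fit of the 8 groups, J or K primed libraries only, a replicate block, other prior counts and leaving out each library.

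The 9 genes and the lists were chosen with earlier results of these data known. From each pathway list, the 2 genes with the highest and the 2 with the lowest median log2 fold change over the 7 protocols were named. A gene at or under 3 counts in every library of a group was treated as at the floor. SEH1L and CASTOR1 were not found by symbol among the list genes (105 of 107 found). For each of the 9 genes, the 2 genes most like it (3 for TFE3) were named, of which 1 is not reported here.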

Additional observations from a re-analysis of the deposited data

How the results depend on the processing

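The alternatives gave counts of the 9 genes within 1.5 times the reported ones, except the following. In the fit of all 8 groups, E-NHSM had 5 genes called and 4i/L/b 8. Against the J libraries alone, E-NHSM had 1. With an absolute log2 fold change of at least 1 required, the counts were 0 in E-NHSM, 3 in NHSM-v, 3 in 4i/L/b, 2 in TL2i, 4 in t2iLGöY and 3 in LCDM (EPS), and 58 of the comparisons between protocols. The share of all genes called was not taken under any alternative. Counts under the alternatives therefore have no background and are not results about the 9 genes or the lists. The TFEB to TFE3 balance passed in 2 protocols with a prior count of 0.5. The direction turned, in each case without a call, for RRAGC in E-NHSM (-0.093) and TL-CDK8/19i (-0.054) against the J libraries, and against the K libraries for MITF in NHSM-v (-0.068) and TL2i (-0.31), RRAGC in TL2i (0.044) and RRAGD in LCDM (EPS) (-0.14). With 1 library left out, the counts were 1 to 2 in E-NHSM, 5 to 8 in NHSM-v, 5 to 7 in 4i/L/b, 4 to 5 in TL2i, 8 in t2iLGöY, 3 to 5 in LCDM (EPS), 2 to 3 in TL-CDK8/19i and 105 to 113 between protocols. They were 0 to 5, 0 to 2 and 0 to 6 protocols for the RRAGD to RRAGC, FNIP2 to FNIP1 and TFEB to TFE3 balances, where fewer libraries raise the smallest p. Log2 fold changes that were not called changed sign with 1 library left out for TFEB (-0.95 to 0.21), FNIP1 (-0.0483 to 0.20), FNIP2 (-0.21 to 0.40), RRAGC (-0.039 to 0.087) and the FNIP2 to FNIP1 balance (-0.18 to 0.19) in E-NHSM, and for MITF in TL2i (-0.025 to 0.40). The cause of the other changes was not tested. Of 280 counts of list genes under alternatives chosen after the data were seen, 41 moved by over 1.5 times. No filter raised the median log2 fold change of all genes to 0.15 in 4i/L/b, 0.17 in TL2i and 0.11 in TL-CDK8/19i. Replicate numbers did not pair the libraries (r between -0.13 and 0.06 for 63 pairs with the same number). With the replicate block among the 7 protocols, 131 comparisons differed, again without a share of all genes to set beside them. No paired analysis was possible because the numbers of the primed columns, given under each letter, were not matched to the replicate numbers of the labels, which holds for each comparison with primed cells. TFEB and GPNMB had 0 counts in 4 primed libraries each.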
